A study of Homo sapiens with 14 samples.

Results

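The 10 genes described here, PDSS1, PDSS2, COQ2, COQ3, COQ4, COQ5, COQ6, COQ7, COQ8A and COQ9, encode the enzymes and partner proteins that build coenzyme Q in mitochondria. They are 10 of 19970 protein-coding genes annotated in GENCODE release 44 on the human genome hg38 and were chosen by name. A peak of ChIP-seq with a ZNF143 antibody was assigned to a gene as a promoter peak when its centre was located from 2 kb upstream to 1 kb downstream of any annotated transcription start site (TSS) of that gene. Other peaks with their centre inside the gene were counted as gene-body peaks. By this rule the 10 genes had 9 promoter peaks and 2 gene-body peaks among the 20429 peaks of untreated cells, and 14 promoter peaks and 10 gene-body peaks among the 35287 peaks of dTAG-V1-treated cells.

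The cells were HEK293T, a human embryonic kidney line, of the clone HEK_CloneZD29. In all of them, treated or not, the transcription factor ZNF143 carried the inducible degron FKBP12F36V and a 2xHA tag, so that every sample comes from 1 edited clone. Chromatin was immunoprecipitated with the polyclonal ZNF143 antibody of Proteintech from 4 untreated samples and from 4 samples given 0.5 µM dTAG-V1, the compound that recruits the tagged protein for degradation, for 30 min. Each condition is represented by 1 peak list without values per replicate, so that no spread between samples and no test of treatment is available, the depth is unknown, and the CTCF samples of the series were not analysed here. By the methods, a peak had to be found in every replicate to count as reproducible in untreated cells, whereas any replicate sufficed in treated cells, and whether the deposited lists carry this unequal rule could not be told from them. By the study's own account the antibody cross-reacts with CTCF, so that a peak below is a region enriched with this antibody, and the parts of ZNF143 and CTCF in it cannot be told apart from the lists alone. The labels and methods describe the first group as untreated, while the names of its peaks refer to DMSO.

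Coenzyme Q, or ubiquinone, is a lipid of the inner mitochondrial membrane that carries electrons from several dehydrogenases to complex III of the respiratory chain. Its long isoprenoid tail is made from mevalonate pathway precursors and is joined to the precursor of the benzoquinone head. This precursor is then decarboxylated, hydroxylated and methylated by a complex of COQ proteins in the matrix. ZNF143 is a zinc-finger transcription factor that binds close to many TSSs through a long sequence called the SBS, which exists in a shorter form around TTCCCA (SBS1) and in a form with ACTACA in front of it (SBS2).

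A motif hit is a stretch that scores against a position matrix learned from the deposited peaks as high as only a share p of random positions with the base composition of the genome. Promoters differ from it, with a median of 63.7% GC over all protein-coding genes. In 300 bp at the canonical TSS, 65.0% of these genes had an SBS hit at p 5e-05. So p is not the rate of hits in promoters, and a hit alone does not show a bound site. Shown first is the member region with the highest score for SBS2, which has the consensus letter of the matrix at 18 of 20 positions. It lies in the peak between COQ5 and its neighbour RNF10. All sequences are read from hg38 on the strand of the hit, 5′ to 3′, with the hit in capitals.
COQ5/RNF10, SBS2, chr12:120534284-120534313, plus strand: caaaaACTACATTTCCCAGAATACCtcacc

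For comparison, the best-scoring SBS hits of the other member promoter peaks are printed, where a peak had one at p 5e-05. They match the consensus at 9 to 12 of 18 or 20 positions, and their distance from the summit, the base with the highest pileup in a peak, is given below with each gene. None of them carries the complete ACTACATTTCCCA stretch of the COQ5/RNF10 site.
PDSS1, SBS1, chr10:26697484-26697513, minus strand: cagccgCTCCCGGGAGGCGACGGGgcaggg
PDSS2, SBS1, untreated, chr6:107459494-107459523, plus strand: gcactgCCCCCGGCCACCCGGGGTagaaac
PDSS2, SBS1, dTAG-V1, chr6:107459684-107459713, plus strand: cagctcCTCCCACCCCGCCGCTCTgggcca
COQ3, SBS2, at the TSS, chr6:99394110-99394139, plus strand: tacagCCTCCAGGCCCCAGCACTCTtaaaa
COQ3, SBS2, in intron 1, chr6:99393796-99393825, minus strand: gctgaGCTCCTTGCCCCAGGAGCCGgcgac
COQ5, SBS1, at the canonical TSS, chr12:120528906-120528935, plus strand: agatccCTCCCATCCGCCCTCTCGcccctt
COQ6, SBS1, chr14:73951029-73951058, plus strand: ccgctgTGCCCAGGCTGCAGTGCAgtggca
COQ7, SBS1, chr16:19067946-19067975, minus strand: cgtcacTCCCCAGGCGTCACTGCCgaaaca
COQ4, SBS1, chr9:128322160-128322189, minus strand: agcgctTTCCCAAACGCCTGTTCTctgtgc

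Sites for CTCF, the insulator factor, were searched because of this cross-reactivity. The hits within 50 bp of a summit lay in gene bodies of the tail synthase genes and in an intron of COQ2. The PDSS1 hit has 12 of 14 letters as the consensus, the COQ2 hit 11 and the PDSS2 hit 9.
PDSS1, CTCF, intron 8, chr10:26726279-26726308, plus strand: catgctgcCCACTAGGGGGCATgctggcat
PDSS2, CTCF, intron 2, chr6:107318309-107318338, plus strand: acaggagaCCAGAAGAGGTCAGcggagagc
COQ2, CTCF, intron 1, chr4:83282218-83282247, minus strand: agaaagtgTCAGCAGGTGGCACtctttcca

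In untreated cells, 8 of the 10 genes had a promoter peak, whereas COQ2 and COQ9 had none. Over all protein-coding genes the share was 40.5%. In the dTAG-V1 list all 10 genes had one, against 48.2% of all genes. The same 8 genes had a promoter peak that overlapped between the lists by at least 1 bp, against 35.6% of all genes. With the dTAG-V1 list shortened to its 20429 strongest peaks, 6 members had a promoter peak, beside 33.2% of all genes, and 5 a shared one, beside 28.7%. With peaks at a −log10 q-value of at least 10, 6 members had a dTAG-V1 promoter peak, beside 32.1%, and with an overlap of at least 50% of each peak 5 had a shared one, beside 30.0%. COQ2 and COQ9, the 2 genes with a promoter peak in the dTAG-V1 list and none in the untreated list, belong to 11.1% of all genes of this kind, and neither had one in the shortened list. A further background is given by CpG-rich promoters. Among the 13084 genes whose promoter has at least 50% GC and a CpG observed/expected ratio of at least 0.6, 53.0% had an untreated promoter peak and 61.8% a dTAG-V1 promoter peak. Of the 9 members of that class, all but COQ2, 8 and 9 did. The members' counts are read beside these shares and were not tested.

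**Figure D1:**
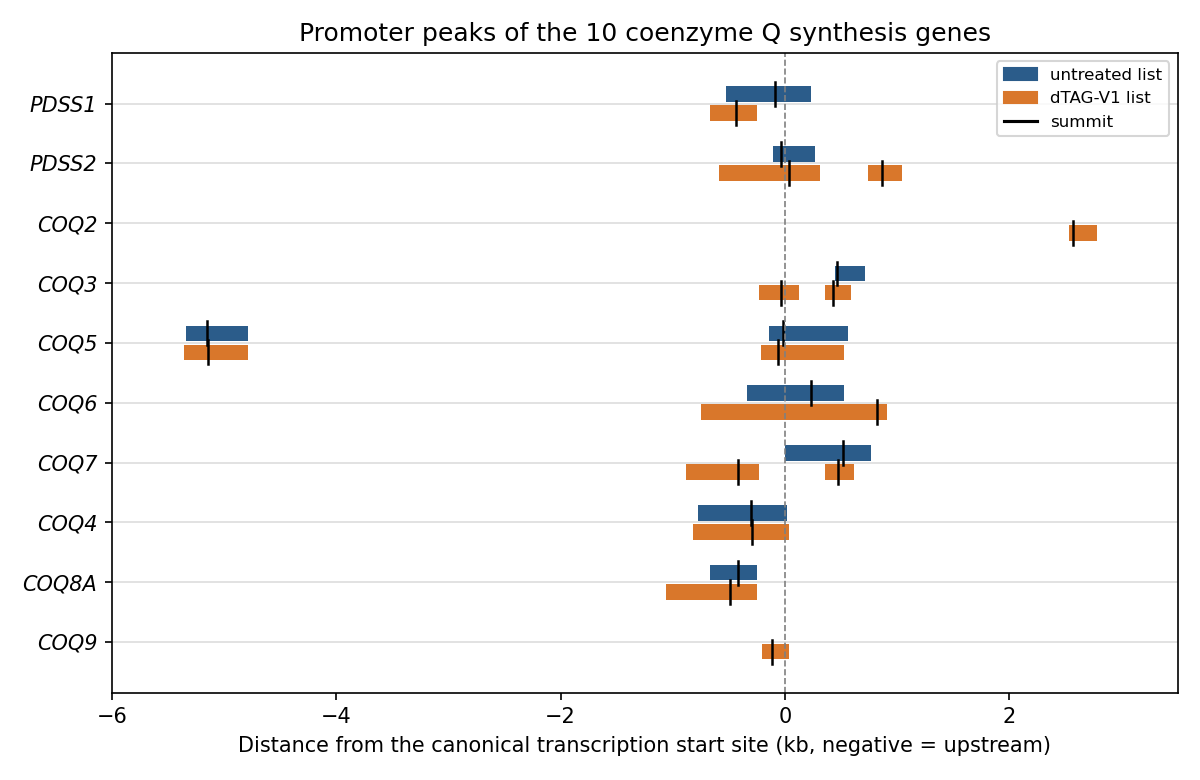
Promoter peaks of the 10 genes along the distance from the canonical TSS in kb, with negative values upstream in the direction of transcription. Blue bars are peaks of the untreated list, orange bars peaks of the dTAG-V1 list and black ticks their summits, so that COQ5 shows a second peak about 5.1 kb upstream, at an alternative start, and COQ2 and COQ9 show orange bars only.

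The strength of a peak was read as its rank by score within its own list, where rank 1 is the strongest. Most members had promoter peaks of middle or low rank. In the untreated list their best promoter peaks had a median rank of 9841.5 of 20429, compared with 6170 over all protein-coding genes with a promoter peak. In the dTAG-V1 list the medians were 17483 of 35287 for the members and 12341 for all such genes. Of the 9 untreated member promoter peaks 1 was among the top 10% of the list, where 20.6% of all promoter peaks were found, and of the 14 dTAG-V1 member promoter peaks 3 were, beside 20.8%. The strong ones were at COQ5 and COQ4, and COQ8A followed.

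**Figure D2:**
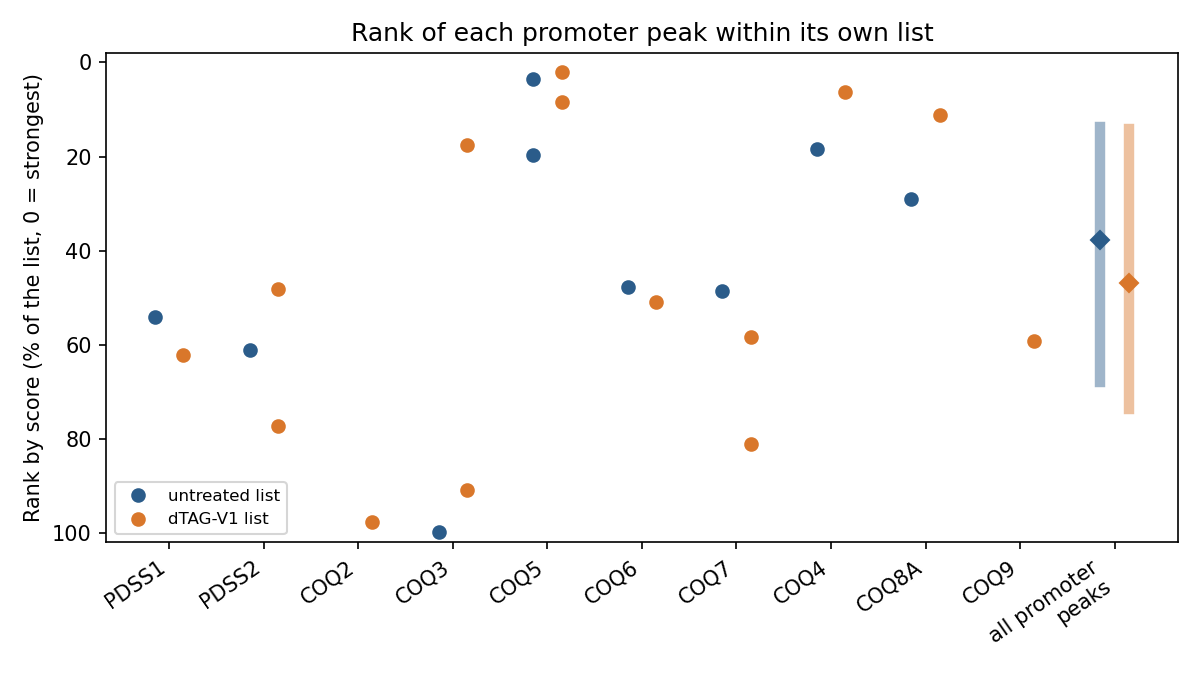
Rank of every promoter peak in percent of its own list, with the strongest peaks at the top, for the untreated list (blue) and the dTAG-V1 list (orange). Diamonds and thick bars give the median and the quartiles over all promoter peaks, at 37.7% and 46.8%, and the points at COQ5, COQ4 and COQ8A sit above these medians in both lists.

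PDSS1 and PDSS2 are the subunits of the decaprenyl diphosphate synthase that makes the isoprenoid tail. At PDSS1, on chromosome 10, the untreated promoter peak (chr10:26697179-26697933) had a −log10 q-value of 13.6, a fold enrichment of 3.46 over the local background and rank 11073. Its summit was 90 bp upstream of the TSS. With dTAG-V1 the peak (chr10:26697030-26697452) had a −log10 q-value of 8.47, a fold enrichment of 2.98 and rank 21926. The overlapping peaks thus had different summits, 349 bp apart, the second 439 bp upstream of the TSS. The best SBS1 hit lay 113 bp from the untreated summit, and a weaker SBS1 hit, at p 5e-05, lay 34 bp from it. The dTAG-V1 peak held no SBS hit.

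PDSS2, on chromosome 6, is the longest of the 10 genes with 307 kb. Its untreated promoter peak (chr6:107459300-107459672) had a −log10 q-value of 11.0 and rank 12501, with the summit 32 bp upstream of the TSS. With dTAG-V1 a wider peak of 905 bp (chr6:107459252-107460156) had a −log10 q-value of 11.9 and rank 17000, with the summit 33 bp downstream. The printed SBS1 hits lay 88 bp from the untreated summit and 167 bp from this dTAG-V1 summit. The wider peak also held the hit printed for untreated cells, 23 bp from its summit. A second dTAG-V1 promoter peak (chr6:107458516-107458825), with its centre 894 bp downstream of the TSS in intron 1, had rank 27252. The last is close to the edge of the promoter window. Just outside it, a COQ3 peak centred 1311 bp downstream of a TSS was counted as a gene-body peak.

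COQ2 is the prenyltransferase that joins tail and head. It had no promoter peak in untreated cells, where the nearest summit was 29.1 kb from its canonical TSS. The dTAG-V1 peak (chr4:83282013-83282268) had a −log10 q-value of 2.88, a fold enrichment of 2.05 and rank 34472 of 35287. It was located in intron 1, 2658 bp downstream of the canonical TSS, and counted as a promoter peak because a shorter transcript starts 544 bp away. The peak is thus among the weakest of the list. The CTCF hit printed above lay 1 bp from its summit, at p 5e-05. The COQ2 promoter, at 49.7% GC, was also the only member promoter below the GC limit of the CpG-rich class.

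COQ3 is an O-methyltransferase of the head group, and COQ5 a C-methyltransferase. The untreated COQ3 peak (chr6:99393481-99393751), in intron 1, was close to the limit of detection with a −log10 q-value of 2.36 and rank 20385 of 20429. The overlapping dTAG-V1 peak (chr6:99393604-99393838) had a −log10 q-value of 3.84 and rank 32084. Its SBS2 hit, printed above for intron 1, lay 48 bp from the summit. A separate dTAG-V1 peak (chr6:99394067-99394426) had its summit 36 bp upstream of the COQ3 TSS, a −log10 q-value of 27.8, a fold enrichment of 4.40 and rank 6187. COQ3 is thus a gene whose shared peak was weak in both lists and whose TSS peak was called in the dTAG-V1 list alone. In that TSS peak the SBS2 hit lay 107 bp from the summit, and 17.6% of all dTAG-V1 promoter peaks held an SBS2 hit scoring as high or higher.

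COQ5, on chromosome 12, had 2 promoter peaks in each list. The peak at the canonical TSS (chr12:120528596-120529302) had a −log10 q-value of 90.7, a fold enrichment of 5.43 and rank 4028 in untreated cells. With dTAG-V1 (chr12:120528628-120529371) the values were 59.8, 4.64 and rank 2964. Both summits were within 63 bp upstream of the TSS. The best SBS1 hit lay 257 bp from the untreated summit and 301 bp from the dTAG-V1 summit, and the SBS hit closest to the summits, 50 and 94 bp away, was an SBS2 hit at p 5e-05.

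The other COQ5 peak was the strongest of all members. It covers an alternative COQ5 start and the promoter of RNF10, a RING-finger ubiquitin ligase gene transcribed in the opposite direction, with the start of a further protein-coding annotation, ENSG00000288623, in the same window. In untreated cells (chr12:120533948-120534496) it had a −log10 q-value of 4753, a fold enrichment of 31.9 and rank 709. In dTAG-V1-treated cells (chr12:120533942-120534514) the −log10 q-value was 1489, the fold enrichment 22.7 and the rank 714. The summits were 3 bp apart. The SBS2 site printed first was centred 9 bp from the untreated summit and 6 bp from the dTAG-V1 summit. It ends 48 bp upstream of the canonical RNF10 TSS and 126 bp from the alternative COQ5 TSS, while the canonical COQ5 TSS is 5131 bp from its start. Its last base is the first base, in genome coordinates, of the untranslated first exon of that alternative COQ5 transcript (chr12:120534308-120534434), and the rest of the site is in the intron that follows. A site scoring as high was found in 2.42% of all untreated and 1.70% of all dTAG-V1 promoter peaks. The data cannot assign the peak to COQ5 or to RNF10.

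COQ6 and COQ7 are the hydroxylases of the head group. The COQ6 promoter on chromosome 14 is shared with FAM161B. The untreated peak (chr14:73949967-73950825) had a −log10 q-value of 17.0, a fold enrichment of 3.75 and rank 9746, with the summit 234 bp downstream of the TSS. The dTAG-V1 peak (chr14:73949552-73951212) was 1661 bp wide instead of 859 bp, had a −log10 q-value of 11.1 and rank 17966, and its summit was 823 bp downstream, 589 bp from the untreated summit. This was the largest summit distance of the 9 shared member regions. The SBS1 hit printed above, at p 1e-05, lay 82 bp from the dTAG-V1 summit in the part of the peak not covered in untreated cells, and a weaker SBS2 hit lay 77 bp from it. The 30 bases around that weaker hit (chr14:73951188-73951217) occur 118 times in the genome, whereas those around the SBS1 hit occur 1 time. The untreated peak held no SBS hit.

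At COQ7, on chromosome 16, the untreated peak (chr16:19067611-19068385) had a −log10 q-value of 16.6, a fold enrichment of 3.71 and rank 9937, with its summit 522 bp downstream of the canonical TSS in intron 1. The overlapping dTAG-V1 peak (chr16:19067969-19068232) was narrower, at 264 bp instead of 775 bp, with a −log10 q-value of 5.12 and rank 28628. A second dTAG-V1 peak (chr16:19066731-19067385) had its summit 415 bp upstream of the TSS and rank 20627. The divergent noncoding transcript COQ7-DT starts in the same window. The SBS1 and SBS2 hits of the untreated peak lay 176 and 231 bp from its summit, and neither dTAG-V1 peak held a complete SBS hit.

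COQ4, COQ8A and COQ9 are partner proteins of the complex: COQ4 organises it and acts on the head group, COQ8A is an atypical kinase with ATPase activity, and COQ9 binds lipids and COQ7. COQ4, on chromosome 9, had the second strongest promoter region of the members. In untreated cells the peak (chr9:128322062-128322862) had a −log10 q-value of 109, a fold enrichment of 9.31 and rank 3742. With dTAG-V1 (chr9:128322019-128322877) it had a −log10 q-value of 104, a fold enrichment of 9.70 and rank 2239. The summits were 5 bp apart. They were placed between divergent genes: the untreated summit was 90 bp from the canonical TSS of TRUB2, which encodes a mitochondrial pseudouridine synthase, and 7 bp before the first COQ4 TSS, while the canonical COQ4 TSS is 302 bp away.

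The COQ4 peak was the strongest member peak without an SBS hit near the summit; the nearest was 363 bp away. The sequence under it is shown for this reason, from 60 bp on the TRUB2 side of the untreated summit to the last base before the first COQ4 exon, with no annotated exon in it and 11 bases around the summit in capitals. Of words read in this stretch, and so chosen after seeing it, CCGGAAG, the core of ETS factor sites, was found on either strand within 100 bp of the summit in 15.0% of all untreated promoter peaks and, among the members, at COQ4 alone, and GCCGCCAT was found in 4.21% and at COQ4 and the canonical COQ5 TSS.
COQ4/TRUB2, chr9:128322477-128322543, plus strand: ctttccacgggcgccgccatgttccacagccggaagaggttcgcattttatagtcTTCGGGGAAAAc

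COQ8A, on chromosome 1, had its untreated peak (chr1:226939629-226940041) upstream of the TSS, with the summit 414 bp away, a −log10 q-value of 40.4, a fold enrichment of 4.44 and rank 5934. The dTAG-V1 peak (chr1:226939238-226940049) was 812 bp wide instead of 413 bp, with a −log10 q-value of 41.3, a fold enrichment of 4.42 and rank 3953. Neither peak held an SBS hit at p 5e-05, and the dTAG-V1 peak held a CTCF hit 308 bp from its summit. The stretch of 121 bases around the untreated summit, which no annotated exon covers, had 69.4% GC. It is shown because this was the highest-ranking untreated member promoter peak that held no SBS hit. Its rank was near the median of 6170 over all protein-coding genes with a promoter peak. The summit is in capitals as before.
COQ8A, chr1:226939820-226939940, plus strand: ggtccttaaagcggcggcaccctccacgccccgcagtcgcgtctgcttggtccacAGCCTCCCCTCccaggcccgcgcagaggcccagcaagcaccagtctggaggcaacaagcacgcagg

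COQ9, on chromosome 16, had no untreated promoter peak, and the nearest untreated summit was 15.1 kb from its canonical TSS. The dTAG-V1 peak (chr16:57447272-57447514) had a −log10 q-value of 9.18, a fold enrichment of 2.97 and rank 20890, with the summit 111 bp upstream of the TSS. It was shared with CIAPIN1, which encodes a factor of cytosolic iron-sulfur cluster assembly, and held neither an SBS nor a CTCF hit. The genes with a promoter peak in the dTAG-V1 list alone had a median rank of 24615, so that the COQ9 peak ranked above this median and the COQ2 peak, at rank 34472, below it.

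Because the lists differ in length, the promoter regions found in both were also ranked among themselves. There were 6441 such regions of protein-coding genes, 9 of them of members. The COQ5/RNF10 region had rank 644 in untreated cells and 654 with dTAG-V1. COQ4 had ranks 2270 and 1653, the canonical COQ5 TSS 2388 and 1936, and COQ8A 3010 and 2276. PDSS2 had ranks 4684 and 4451, and COQ3 6435 and 6300. Lower with dTAG-V1 were PDSS1, with ranks 4354 and 5209, COQ6, with 4022 and 4614, and COQ7, with 4067 and 6035. In all 4 member regions ranked lower with dTAG-V1 and 5 higher. COQ7 moved by far more than the median change of 8.21 percentage points over all regions, from 63.1% to 93.7% of the ranking, and COQ5/RNF10 by far less.

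**Figure D3:**
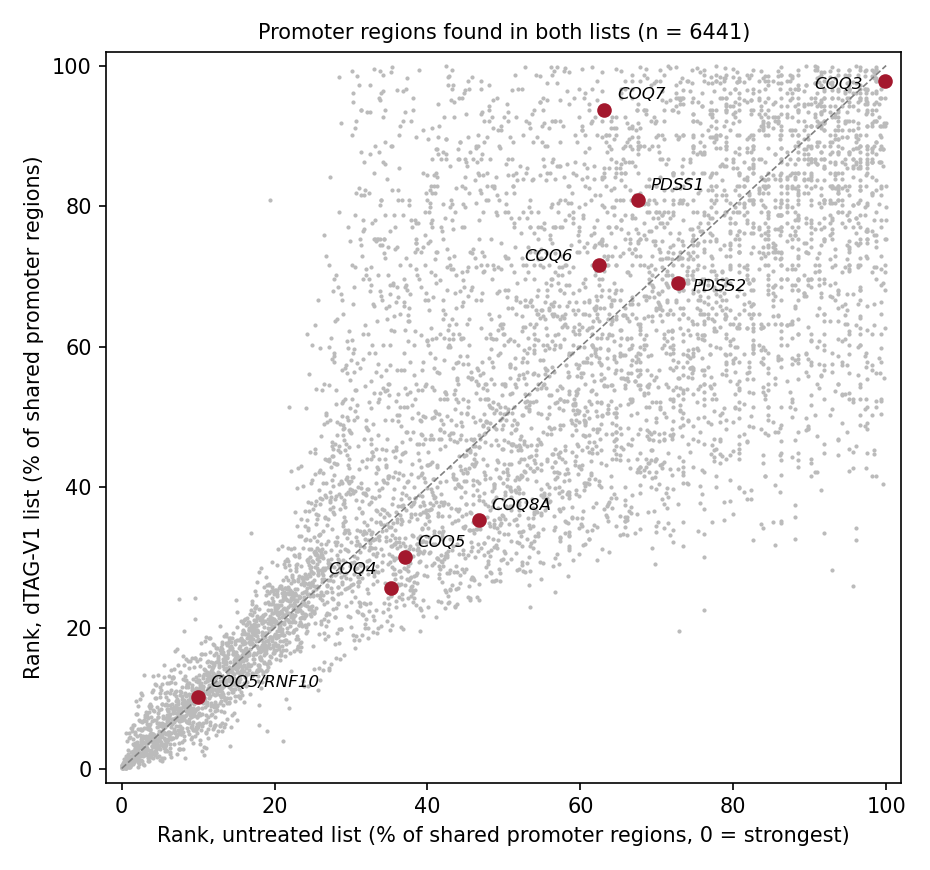
Rank of 6441 promoter regions found in both lists, in percent, in the untreated list (x axis) against the dTAG-V1 list (y axis), with strong regions at the lower left, the 9 member regions in red and the diagonal of equal rank dashed. COQ5/RNF10 lies on the diagonal at about 10%, COQ4, COQ8A and the canonical COQ5 region lie below it, and COQ7 lies far above it at 93.7%.

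Position and width of the shared peaks were compared next. The summits were within 100 bp of each other in 7 of the 9 member regions, beside 74.9% of all shared promoter regions, the exceptions being PDSS1 and COQ6. The median distance over all regions was 27 bp. The dTAG-V1 peak was wider in 6 of 9 member regions and in 70.3% of all. PDSS1, COQ3 and COQ7 had narrower peaks with dTAG-V1.

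SBS hits were then counted over the promoter peaks. Hits at p 5e-05 anywhere in the peak were present in 6 of 9 untreated member peaks, beside 77.7% of all untreated promoter peaks, and in 7 of 14 dTAG-V1 member peaks, beside 65.8%. CTCF hits were present in 1 of 9 and 3 of 14 member peaks, beside 38.0% and 42.3%. Hits at p 1e-05 within 100 bp of the summit gave a narrower count. Of all untreated promoter peaks 41.8% had such an SBS hit (95% Wilson interval 40.7 to 42.9%, counting error only), and of the members' 9 peaks 1 did, at COQ5/RNF10. Of all dTAG-V1 promoter peaks 26.0% did (25.2 to 26.9%), and of the members' 14 peaks 2 did, at COQ5/RNF10 and COQ6. Such CTCF hits were found in 9.70% and 15.6% of all promoter peaks and in none of the member promoter peaks.

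The share with an SBS hit near the summit followed the rank of the peak. Among the 1587 promoter peaks in the top 10% of the untreated list, 93.4% had such a hit at p 1e-05, and the 1 member peak there, at COQ5/RNF10, had it as well. Among the remaining 6114 promoter peaks the share was 28.4%, and none of the 8 member peaks there had it. In the dTAG-V1 list the shares were 75.2% and 13.1%, with 1 of 3 and 1 of 11 member peaks. The canonical COQ5 TSS and COQ4 were the member peaks in the top 10% of the dTAG-V1 list without such a hit. The words ATTTCCCA and AATGTAGT, parts of the SBS2 site on its plus and minus strands, were found on either strand within 100 bp of 4.26% and 2.71% of untreated promoter summits and, among the members, at COQ5/RNF10 alone. Both are contained in the printed COQ5/RNF10 site, so that their presence there was given in advance. ACTTCCGG, a longer ETS-type word that contains the reverse complement of the CCGGAAG seen at COQ4, was present at 7.25% of untreated promoter summits and at no member summit.

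**Figure D4:**
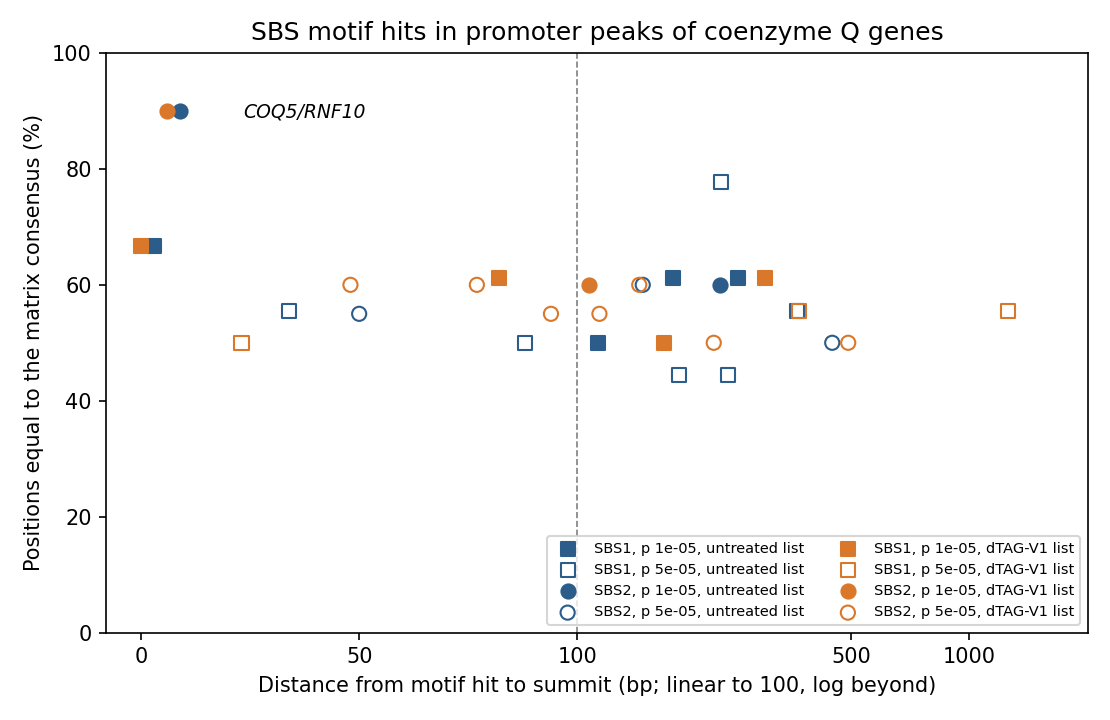
Every SBS hit at p 5e-05 in a member promoter peak by its distance from the summit (x axis, bp, linear to 100 and logarithmic beyond) and the percent of positions equal to the matrix consensus (y axis), for SBS1 (squares) and SBS2 (circles), filled at p 1e-05, in the untreated (blue) and dTAG-V1 (orange) lists. The SBS2 hit of COQ5/RNF10 stands apart at the upper left, at 9 and 6 bp from the summits with 18 of 20 positions, and the dashed line marks 100 bp.

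Away from the promoters, 2 of the 10 genes had gene-body peaks in untreated cells, beside 18.6% of all protein-coding genes, and 4 had them with dTAG-V1, beside 30.6%. Per 100 kb of gene body the members had 0.374 such peaks untreated and 1.87 with dTAG-V1, compared with 0.479 and 0.966 over all protein-coding genes. PDSS2, the longest member with 307 kb, held 6 of the 10 dTAG-V1 peaks. Its rate of 1.95 peaks per 100 kb was close to the 1.87 of all members together. With the dTAG-V1 list shortened to the size of the untreated list, the members had 4 gene-body peaks, 3 of them in PDSS2, and the rate was 0.749 per 100 kb, beside 0.530 over all protein-coding genes. All untreated and dTAG-V1 gene-body peaks but 1, in the untranslated part of PDSS2 exon 8, were intronic.

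In PDSS2 the untreated list had a single gene-body peak (chr6:107247012-107247359), in intron 3, 212 kb from the canonical TSS, with a −log10 q-value of 38.6, a fold enrichment of 5.23 and rank 6089. It thus ranked above the PDSS2 promoter peak. It held an SBS1 hit at p 5e-05, 17 bp from the summit. The overlapping dTAG-V1 peak (chr6:107246556-107247572), 1017 bp wide instead of 348 bp, had a −log10 q-value of 5.95 and rank 26909. The other 5 dTAG-V1 peaks had no untreated counterpart, and the share of such peaks over the whole dTAG-V1 list was not counted. Together the 20429 untreated and 35287 dTAG-V1 peaks merge into 40687 regions. Many dTAG-V1 peaks elsewhere thus lack an untreated counterpart too, and the 5 are not read as particular to PDSS2. These 5 peaks were placed in intron 2 (ranks 17580 and 19947), intron 4 (rank 27252), intron 7 (rank 12927) and exon 8 (rank 29880). The first of them (chr6:107318171-107318548) held the CTCF hit printed above, 13 bp from its summit. It also held an SBS1 hit at p 5e-05, 32 bp from the summit.

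**Figure D5:**
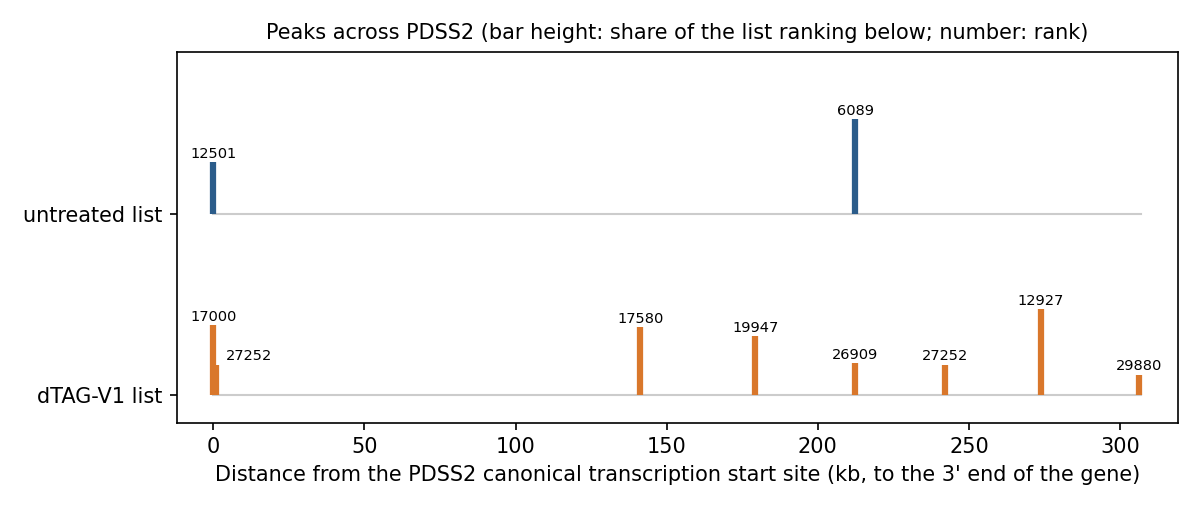
Peaks along PDSS2 by the distance of their summit from the canonical TSS in kb, for the untreated list (upper row) and the dTAG-V1 list (lower row), with the rank of each peak as a number and the share of the list ranking below it as the height of the bar. The untreated list shows 1 peak away from the promoter, at 212 kb and rank 6089, and the dTAG-V1 list shows 6 of ranks 12927 to 29880.

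The remaining gene-body peaks were few. In PDSS1 the dTAG-V1 list had a peak (chr10:26726121-26726627) in intron 8, 28.7 kb from the TSS, with a −log10 q-value of 21.2 and rank 8856, above the PDSS1 promoter peak. The CTCF hit printed above, at p 1e-05, lay 24 bp from its summit. In COQ7 the untreated list had a peak (chr16:19072136-19072454) in intron 2 with rank 14482, which the dTAG-V1 list lacked. It held an SBS1 hit at p 5e-05, 49 bp from its summit, and a CTCF hit at p 1e-05, 207 bp from its summit. COQ3 had a dTAG-V1 peak in intron 4 with rank 30606, and COQ8A had dTAG-V1 peaks in intron 1, rank 26498, and intron 4, rank 28448.

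The promoters of the members were compared over 300 bp, from 250 bp before the canonical TSS to 50 bp after it. Their median GC content was 60.8% and the median CpG observed/expected ratio 0.909, compared with 63.7% and 0.776 over all protein-coding genes. They had a median of 6 annotated TSSs per gene, beside 5. In this window, read without regard to peaks, 6 of 10 members had an SBS hit at p 5e-05, beside 65.0% of all genes, and 2 of 10, PDSS1 and PDSS2, had one at p 1e-05, beside 35.3%. Windows shared with another protein-coding gene held 19.0% of all untreated and 16.1% of all dTAG-V1 promoter peaks. Among the members this applied to COQ4 with TRUB2, COQ5 with RNF10 and COQ6 with FAM161B in both lists, and to COQ9 with CIAPIN1 in the dTAG-V1 list.

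Other genes of the pathway were counted as well. Of 14 genes that supply precursors or help the pathway, 12 had an untreated promoter peak, 13 a dTAG-V1 promoter peak and 11 a shared one, beside 40.5%, 48.2% and 35.6% of all protein-coding genes. The highest ranks in untreated cells were those of FDPS, the farnesyl diphosphate synthase of the mevalonate pathway, at 167, of PPTC7, a mitochondrial phosphatase, at 1456, and of COQ10A, a lipid-binding partner of coenzyme Q, at 1581. Their dTAG-V1 ranks were 290, 1024 and 1872, and all of them had an SBS hit at p 1e-05 within 100 bp of the untreated summit. Such a hit was found in the best untreated promoter peak of 5 of the 12 suppliers with a peak, beside 45.0% of the 8097 genes with one. All 3 ranked above the COQ4 promoter, and FDPS also above COQ5/RNF10. Of 8 enzymes that use coenzyme Q outside complexes I to III, 3 had an untreated promoter peak, 4 a dTAG-V1 promoter peak and 3 a shared one, beside the same shares of all genes. ETFDH, which passes electrons from fatty acid oxidation to coenzyme Q, had ranks 500 and 325. DHODH, of pyrimidine synthesis, had ranks 11974 and 20280, and CHDH, of choline oxidation, 14547 and 28060. The users with no promoter peak in either list were SQOR, GPD2, PRODH and AIFM2, and among the suppliers HPDL had none.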

How the data were processed

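Regions enriched by ChIP-seq with the Proteintech antibody, which the study describes as cross-reacting with CTCF, were analysed from 1 deposited peak list for 4 untreated and 1 for 4 dTAG-V1 samples, and 6 CTCF samples of the 14 in the series were not analysed here. According to the methods, the authors mapped reads to hg38 with bwa, removed duplicates with Picard and called narrow peaks with MACS2. They describe reproducible peaks as those of every untreated replicate and of any dTAG-V1 replicate, a looser rule for treated cells. The lists hold no value per replicate, and how the rule shaped them was not tested. The deposited score is an integer that MACS2 writes from the q-value, the deposited fold enrichment is a ratio at the summit over the local background, and the deposited −log10 q-value comes from the same call. Each depends on depth, which is unknown, so that ranks within a list were used, and a peak near the threshold may be called in 1 list alone. No column of per-sample values was left unused (0).

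TSSs, exons and genes were those of GENCODE release 44. Lists were overlapped at 1 bp or more. The matrices SBS1 (18 bp), SBS2 (20 bp) and CTCF (14 bp) were learned from peaks on odd-numbered autosomes, which include chromosomes 1 and 9 of COQ8A and COQ4, from written consensus letters with at most 2 mismatches, over 10 iterations, with a pseudocount of 0.8 and sites at p 1e-06. Hits were searched at p 5e-05 on both strands of whole peaks. SBS1 and SBS2 hits can overlap, and matrix and window search were tested on simulated data. Motif shares carry 95% Wilson intervals. Python 3.11.15 was used with pandas 2.3.3 for tables, pysam 0.24.0 for sequences, numpy 2.4.6 for matrix scores, scipy 1.17.1 for intervals and matplotlib 3.10.9 for plots.

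The 10 genes, the pathway lists and the alternatives were chosen with earlier results of these data known. All 10 are described, with the genes that share their promoter windows, and of the pathway lists the 3 highest-ranking genes in untreated cells. Alternatives changed the promoter window, the q-value, the length of the dTAG-V1 list, the overlap and the motif threshold.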

Additional observations from a re-analysis of the deposited data

How the results depend on the processing

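Over 26 recomputed counts, 17 were within 1.5 times of the count reported. With peaks at a −log10 q-value of at least 10, 6 genes had a dTAG-V1 promoter peak instead of 10 (32.1% of all genes instead of 48.2%), and 6 (33.2%) with the dTAG-V1 list shortened to the 20429 strongest peaks, which by construction removes weak peaks. That shortening also left 5 genes with a shared promoter peak instead of 8 (28.7% of all genes instead of 35.6%), and 4 gene-body peaks instead of 10. Requiring an overlap of 50% of each peak left 5 genes with a shared peak (30.0%). SBS hits at p 1e-05 within 100 bp of the summit, a setting chosen after seeing the data, were found in 2 genes instead of 7. In promoter peaks, CTCF hits were found in 4 genes, in 2 within 100 bp of the summit, and in 0 at p 1e-05, with or without that distance. These gene counts join both lists, and their shares over all protein-coding genes were not computed. Per promoter peak, SBS hits were in 77.7% of all untreated and 65.8% of all dTAG-V1 peaks. At the stricter setting they were in 41.8% and 26.0%. CTCF hits were in 38.0% and 42.3%, within 100 bp in 20.4% and 26.2%, and at p 1e-05 in 17.1% and 22.4%. Gene-body peaks were not part of these counts, and those of PDSS1, PDSS2 and COQ7 held CTCF hits at p 1e-05. The COQ7 hit lay 207 bp from the summit. No paired analysis was possible because each condition is 1 list without replicate columns and no result comes from a test, and for the same reason no replicate could be left out.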
